A study of Stylosanthes guianensis with 6 samples.

Results

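Zinc finger proteins fold a short stretch of chain around a zinc ion, held by cysteine and histidine residues, and are named after the order of those residues (C2H2, CCCH, CCHC) or after the protein in which the fold was first described (RING, Dof, GATA, LSD1). The unigenes described here are the zinc finger (ZF) entries of the study's transcription factor table whose descriptions name neither JACKDAW nor NUTCRACKER. There were 60 of them among 173014 assembled unigenes and among 69 ZF entries of that table, of which the 9 JACKDAW and NUTCRACKER unigenes were left out, and 0 stood in the study's hormone table. The table lists unigenes that had already been selected on their measured difference between LP and HP in these same libraries, so the differences below are given as a description and carry no test. The table held 282 unigenes, of which 213 belonged to other families.

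RNA was sequenced from roots of the stylo (Stylosanthes guianensis) cultivar RY2, a forage legume line chosen by the study for its tolerance of low phosphorus. Seedlings grown in nutrient solution at pH 5.8 were moved to 0 µM KH2PO4 (LP) or 250 µM KH2PO4 (HP, titled CK in the labels) for 21 d, and each treatment had 3 libraries. Each replicate was a separate hydroponic box with 3 seedlings, so the spread between libraries is that between boxes, with several plants pooled in each. Both treatments used the same cultivar, solution and age, and differed in phosphate supply. The phosphorus field of the labels swaps the doses of the treatments, and the titles with the study's own definition were used.

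The libraries were checked against these labels. FPKM (fragments per length of unigene and sequenced reads) of the SPX domain-containing protein 1 unigene, whose family is induced by phosphate starvation in many plants, was 189, 199 and 229.9 in the LP libraries, against 3.71, 3.72 and 4.25 in the HP libraries. The labels' extraction text speaks of leaves. A unigene described as photosystem I reaction center subunit III, whose source species is not given here, was listed at 36.1, 45.2 and 33.1 FPKM in the LP libraries. It was listed at 0 in all 3 HP libraries, while a chlorophyll a/b-binding unigene named after an alga reached at most 2.01 FPKM. A high-affinity nitrate transporter unigene typical of roots held 111, 131 and 179.8 FPKM under LP, against 1638, 1952 and 1807 under HP. All of these unigenes were looked up among genes that the study had selected for a difference between LP and HP. That they differ was therefore fixed in advance, and a marker with equal levels could not appear. The part of that green signal in the values below was not tested. In whole roots, fewer cells of a type and less RNA per cell cannot be told apart. Total counts were 20643446 to 21784888 under LP, against 15586353 to 17821019 under HP.

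In plants, C2H2, Dof and GATA fingers mostly contact DNA and act as transcription factors. CCCH fingers and RanBP2-type fingers mostly contact RNA, and CCCH proteins of Arabidopsis take part in mRNA decay and translation. RING, A20/AN1, DHHC, FYVE and DNL fingers serve contacts with proteins or lipids, in ubiquitin transfer, fatty acid attachment, membrane sorting and chaperone work. By the finger type in the description, 17 members were put in a DNA class. Besides C2H2, Dof and GATA members, this class took in 3 B-box, 2 LSD1 and 1 mini zinc finger members, whose fingers need not contact DNA. A finger that usually contacts RNA was named for 27 members and one that usually contacts proteins for 8. A finger of transposase-related or chromatin proteins was named for 4, and for 4 members the description named no type. CCCH was the largest type with 23 members, followed by C2H2 with 8. The descriptions of 52 members were matches to legume species.

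Counts were scaled by TMM, and normalized counts are per library of the mean effective size. Each log2 fold change is LP over HP from edgeR's quasi-likelihood fit over 62040 unigenes, and its SE was obtained from the F statistic of that fit (the change over the root of F). A unigene was called where the Benjamini-Hochberg adjusted p was under 0.05 and the log2 fold change was 1 or more in either direction. By level, 25 members were higher under LP and 35 were lower. The filter on low counts kept 55 members, of which 45 were called, beside 13.2% of all unigenes tested. Among them, 18 were higher under LP (6.09% of all unigenes were called in that direction) and 27 were lower (7.1%). The LP and HP libraries of all 60 members did not overlap, beside 42.4% of all unigenes tested. The members were chosen by this contrast, and nothing is read from these counts. Without HP replicate 1, 28 members were called and 10 of them were higher under LP, and without LP replicate 1, 11 were higher. A total of 21 members were called with any 1 library left out, and the other 24 lost the call in at least 1 of these fits without a change of sign. Among these 24, the call held in only 1 of the 6 fits for Cluster-8255.51354, Cluster-8255.24663 and Cluster-8255.81033. It held in 2 for Cluster-8255.67100, Cluster-8255.43242, Cluster-8255.30099, Cluster-8255.95337 and Cluster-8255.107125.

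In both treatments, 51 members had more than 3 reads. Of these, the 20 that were higher under LP had LP levels 2.10 to 22.8 times those under HP (median 2.97), and the 31 that were lower had HP levels 2.04 to 6.64 times those under LP (median 2.66). Members just inside the threshold were Cluster-8255.103739, a CCCH protein 38, with a log2 fold change of -1.02 ± 0.18, and Cluster-8255.107125, another CCCH protein, with 1.07 ± 0.22. Unigenes just outside it carry no description in the sources used here, so no zinc finger unigene from there can be named. The median size of the log2 fold change was 1.48 over the members and 0.58 over all unigenes tested. Of the 17 members of the DNA class 4 were higher and 13 were lower under LP. The 4 that were higher were 1 C2H2, 1 B-box and 2 LSD1 members. Members with an RNA-contacting finger were split into 13 higher and 14 lower. The 8 with a protein-contacting finger were split evenly, with 4 higher and 4 lower.

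**Figure D1:**
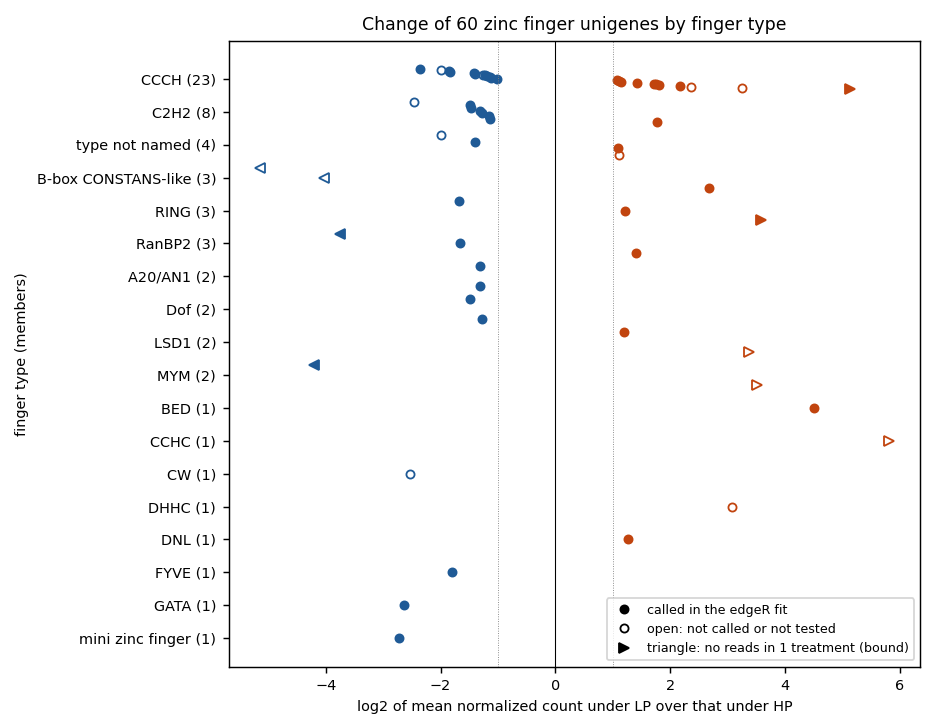
Change of the 60 zinc finger unigenes, with the log2 ratio of the mean normalized count under LP to that under HP on the x axis and finger type with its number of members on the y axis. Each point is 1 unigene, red where it was higher under LP and blue where it was lower, filled where called in the edgeR fit and open where not called or not tested, and triangles are bounds for the 9 unigenes without reads in 1 treatment. Of the 8 C2H2 members 7 lie on the lower side, while the 23 CCCH members lie on both sides (11 higher and 12 lower).

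Levels of the members ranged widely. Mean FPKM over all 6 libraries was under 1 for 9 members, 1 to 10 for 34, 10 to 100 for 14 and 100 or more for 3, with a median of 4.52, against 2.59 over all unigenes tested. The most abundant member, one of the SAP8 unigenes, held 42.0% of the members' summed mean FPKM under LP and 55.7% of that under HP. Normalized counts summed over the other 59 members were 13899.8, 13999 and 14804 in the LP libraries, against 14109, 13549 and 14216 in the HP libraries. These summed counts overlapped between treatments. Summed FPKM of the same 59 members did not, with 749, 763 and 796 under LP, against 1145, 1098 and 1112 under HP. The members ranking next by FPKM, Cluster-8255.55679 and Cluster-8255.66622, had effective lengths of only 134 and 60.5 bases, against a median of 1248 bases over the members, and FPKM divides by this length. Their mean FPKM was 126 and 59.7 under LP, against 399 and 158 under HP. The gap between the summed FPKM of the treatments lay in these 2 short unigenes. By mean normalized count, Cluster-8255.55679 ranked 9 and Cluster-8255.66622 ranked 27 of the 60.

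The SAP8 unigenes encode proteins with A20 and AN1 fingers, a family linked to stress tolerance in rice and Arabidopsis. Cluster-8255.67269 had FPKM values of 471, 479 and 723 in the LP libraries, against 1238, 1599.9 and 1384 in the HP libraries, and normalized counts of 7179, 7166 and 11262 in the LP libraries, against 18562, 24449.9 and 20864 in the HP libraries. Its log2 fold change was -1.32 ± 0.21. Cluster-8255.67017 had normalized counts of 405, 406 and 602 in the LP libraries, against 1103, 1266 and 1153 in the HP libraries, with a log2 fold change of -1.32 ± 0.17. In both unigenes LP replicates 1 and 2 were close to each other and LP replicate 3 was higher, yet still below every HP library. Their sum was 9007 ± 2475 under LP and 22466 ± 3051 under HP (SD, n = 3 each).

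CCCH members showed both directions in nearly equal numbers (11 higher and 12 lower under LP). The most abundant of them by normalized count, Cluster-8255.83648, is described as CCCH domain-containing protein 20 and had normalized counts of 2471, 2340.2 and 2778 in the LP libraries, against 696, 714 and 848 in the HP libraries. Its log2 fold change was 1.75 ± 0.12, and the libraries of each treatment lay close together. A second unigene of that name, Cluster-8255.61587, had normalized counts of 1004, 1441 and 928 in the LP libraries, against 471, 183 and 0 in the HP libraries. The HP libraries of this unigene were spread over a range that included 0, and with 2.36 ± 1.06 its change was not called. With 1 library left out, the change lay between 1.76 and 3.68 (3.68 without HP replicate 1) and was never called. In contrast, the third, Cluster-8255.85059, was lower under LP, with normalized counts of 61.0, 56.8 and 51.4 in the LP libraries, against 206, 178 and 219 in the HP libraries and a log2 fold change of -1.83 ± 0.18. Summed over the 3 unigenes, protein 20 counts were 3710 ± 156 under LP and 1172 ± 175 under HP (SD, n = 3 each). Normalized counts of the 20 CCCH members outside this set summed to 4097, 3926 and 4288 under LP, against 5621, 5110.1 and 5658 under HP, so they were lower as a sum while all 23 together were higher.

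A pair of CCCH unigenes also carry a G patch, a glycine-rich stretch found in proteins of RNA processing. Cluster-8255.84811 had normalized counts of 826, 800.2 and 842 in the LP libraries, against 231, 232 and 246 in the HP libraries, with a log2 fold change of 1.80 ± 0.09, the smallest SE among the members. Cluster-8255.107045 had normalized counts of 269, 169.6 and 215 in the LP libraries, against 45.9, 69.0 and 29.9 in the HP libraries, with a log2 fold change of 2.17 ± 0.34. Both were higher in every LP library, and their sum was 1040 ± 63.8 under LP and 285 ± 14.3 under HP (SD, n = 3 each).

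Unigenes of 1 name lay on opposite sides in the sets named CCCH protein 32 and CCCH protein 43. For protein 32, Cluster-8255.51354 had normalized counts of 188, 178 and 113 in the LP libraries, against 76.1, 77.5 and 67.9 in the HP libraries, while Cluster-8255.45821 had normalized counts of 64.5, 25.3 and 108 in the LP libraries, against 174, 139 and 207 in the HP libraries. Their log2 fold changes were 1.11 ± 0.24 and -1.39 ± 0.49, the second not called (but called at -1.94 without LP replicate 3), and LP replicate 3 was the lowest LP library for the first and the highest for the second. Summed counts of the 2 were 226 ± 25.2 under LP and 247 ± 29.2 under HP (SD, n = 3 each), and these sums overlapped. For protein 43, Cluster-8255.67100 had normalized counts of 323, 305 and 381 in the LP libraries, against 39.6, 142 and 127 in the HP libraries, and Cluster-8255.96834 had normalized counts of 82.8, 109 and 135 in the LP libraries, against 239, 229 and 245 in the HP libraries. Their log2 fold changes were 1.72 ± 0.43 and -1.12 ± 0.20, and the second was -0.95 without LP replicate 1. The sum of the 2 was 445 ± 61.0 under LP and 340 ± 53.5 under HP (SD, n = 3 each).

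The CCCH member with the clearest presence under LP alone was Cluster-8255.110200. Its best Swiss-Prot match is a CCCH protein of Arabidopsis, while its Pfam text names an ATPase and a peptide transporter region beside the CCCH finger. This unigene had 39, 56 and 37 reads in the LP libraries, against 0 reads in every HP library. The normalized level was at least 34.9-fold higher under LP, with the floor at 3 reads over the HP libraries. Cluster-8255.57015, described only as a CCCH domain protein, had normalized counts of 30.5, 47.8 and 36.7 in the LP libraries, against 0, 12.1 and 0 in the HP libraries. All HP reads of this unigene came from HP replicate 2, and its log2 fold change of 3.25 ± 1.27 was not called, and without that library no HP read remains.

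On the lower side, Cluster-8255.66862, named CCCH protein 1, had normalized counts of 57.5, 53.2 and 80.7 in the LP libraries, against 342, 274 and 373 in the HP libraries. This was the CCCH member with the largest decrease among those called, with a log2 fold change of -2.37 ± 0.22. Cluster-8255.100561 had normalized counts of 52.3, 0 and 29.4 in the LP libraries, against 94.9, 113 and 116 in the HP libraries, and Cluster-8255.75221, a CCCH protein 44-like unigene, had normalized counts of 93.3, 46.0 and 144 in the LP libraries, against 262, 197 and 221 in the HP libraries. Neither was called, with log2 fold changes of -1.98 ± 1.02 and -1.26 ± 0.39, and in both LP replicate 2 was the lowest library. Cluster-8255.100561 had a log2 fold change of -2.86 without LP replicate 1 and was called without LP replicate 2, at -1.39. Cluster-8255.75221 was called without LP replicate 3, at -1.70, and its smallest change with 1 library left out was -0.93. The other CCCH members had log2 fold changes between -1.85 and -1.02 (6 unigenes lower under LP) and between 1.07 and 1.41 (3 unigenes higher), with mean normalized counts under LP of 46.2 to 667, and all of them were called. Summed FPKM of all 23 CCCH members was 294 ± 5.81 under LP and 232 ± 15.2 under HP (SD, n = 3 each).

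**Figure D2:**
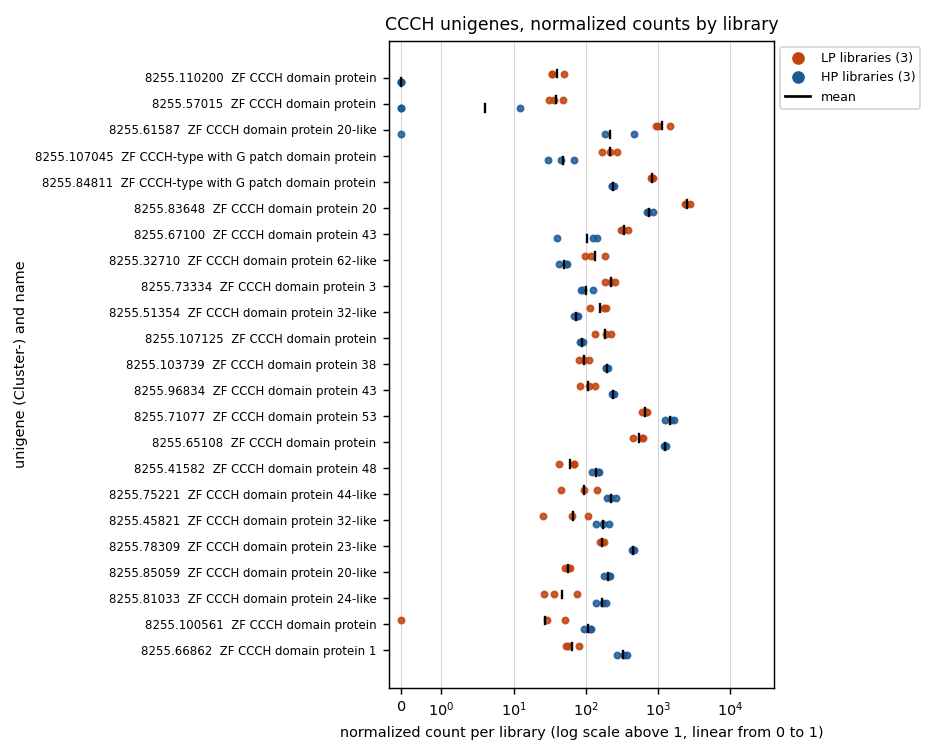
Normalized counts of the 23 CCCH unigenes, 1 row each, on an x axis that is logarithmic above 1 and linear between 0 and 1. Red points are the 3 LP libraries, blue points the 3 HP libraries and black ticks their means, and rows run from the largest increase under LP at the top to the largest decrease at the bottom. Colours are apart in every row, and Cluster-8255.61587 has HP libraries between 0 and 471.

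C2H2 fingers are the classical DNA-contacting type, and the ZAT proteins among them carry a short repression motif in Arabidopsis, where several respond to stress. ZAT8, Cluster-8255.25798, was the only C2H2 member higher under LP, with normalized counts of 355, 169 and 352 in the LP libraries, against 70.9, 75.1 and 112 in the HP libraries and a log2 fold change of 1.77 ± 0.34. LP replicate 2 was the lowest of its LP libraries and still above every HP library. Both ZAT5-like unigenes were lower. Cluster-8255.60980 had normalized counts of 83.7, 90.2 and 93.6 in the LP libraries, against 289, 225 and 238 in the HP libraries and a log2 fold change of -1.49 ± 0.16, and was called under every alternative run. Cluster-8255.49991 had normalized counts of 0, 5.41 and 17.4 in the LP libraries, against 35.4, 36.3 and 54.1 in the HP libraries, with no read in LP replicate 1. Its change of -2.45 ± 1.06 was not called. With 1 library left out, the change lay between -3.90 (without LP replicate 3) and -1.86. Together the ZAT5-like unigenes summed to 96.8 ± 13.7 under LP and 293 ± 31.4 under HP (SD, n = 3 each).

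ZFP5 promotes root hair and trichome formation in Arabidopsis. The unigene described as zinc finger protein 5, Cluster-8255.66622, had normalized counts of 65.4, 63.2 and 67.0 in the LP libraries, against 186, 190.1 and 163 in the HP libraries, with a log2 fold change of -1.46 ± 0.16. Its libraries were tight within each treatment, and its mean FPKM of 59.7 under LP and 158 under HP is divided by the short effective length given above. The other C2H2 members, which include a MAGPIE-like unigene (in Arabidopsis a root patterning factor of the same family as JACKDAW), ZAT9-like and ZFP3-like unigenes, were 4 unigenes with log2 fold changes of -1.31 to -1.14, all called. Summed FPKM over the 8 was 125 ± 9.98 under LP and 257 ± 5.96 under HP (SD, n = 3 each). Cluster-8255.66622 alone held 47.6% of this sum under LP and 61.5% under HP. Summed normalized counts over the 8 were 1179 ± 125 under LP and 2196 ± 56.3 under HP.

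Most other members of the DNA class were lower under LP as well. Dof proteins are plant-specific factors with a single finger, and Cluster-8255.30099 (DOF1.5) had normalized counts of 68.9, 57.7 and 83.5 in the LP libraries, against 209.5, 191 and 109 in the HP libraries, while Cluster-8255.96261 (DOF3.1) had normalized counts of 45.3, 34.3 and 55.0 in the LP libraries, against 114, 121 and 142 in the HP libraries. Log2 fold changes were -1.28 ± 0.30 and -1.48 ± 0.25, and HP replicate 3 was the lowest HP library for DOF1.5 and the highest for DOF3.1. The mini zinc finger protein 3 unigene, Cluster-8255.91046, had normalized counts of 20.9, 19.8 and 30.3 in the LP libraries, against 159.5, 169 and 143 in the HP libraries. In Arabidopsis, mini zinc finger proteins lack the homeodomain of their relatives and can block them by pairing. With -2.73 ± 0.25, its log2 fold change was the largest decrease among called members with reads in both treatments. A GATA type unigene, Cluster-8255.63043, had normalized counts of 16.6, 8.12 and 15.6 in the LP libraries, against 70.9, 67.8 and 112 in the HP libraries and a log2 fold change of -2.62 ± 0.40.

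CONSTANS-like proteins carry B-box fingers and a CCT domain, and act in light signalling and flowering time in Arabidopsis. The 3 CONSTANS-like members went in different directions. CONSTANS-LIKE 3, Cluster-8255.116302, was higher under LP, with normalized counts of 81.1, 52.3 and 42.2 in the LP libraries, against 5.21, 6.05 and 16.1 in the HP libraries and a log2 fold change of 2.67 ± 0.55. It was 3.34 without HP replicate 3, and the call was lost without LP replicate 1, HP replicate 1 or HP replicate 2. CONSTANS-LIKE 13, Cluster-8255.74144, had 0 reads in every LP library, against 57, 3 and 24 reads in the HP libraries, which put it at least 35.3-fold lower under LP. CONSTANS-LIKE 12, Cluster-8255.85950, also had 0 reads under LP, against 12, 19 and 8 reads under HP, and was at least 16.4-fold lower. Neither of these passed the filter on low counts, and for CONSTANS-LIKE 13 most reads came from HP replicates 1 and 3. The Pfam text of the CONSTANS-LIKE 12 unigene names a CCT motif and no B-box finger. Summed over the 3 unigenes, the counts of LP and HP libraries overlapped.

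LSD1 of Arabidopsis restrains cell death. Cluster-8255.43242, named LSD1, had normalized counts of 563, 625 and 769 in the LP libraries, against 220.0, 404 and 228 in the HP libraries, with a log2 fold change of 1.20 ± 0.26 and HP replicate 2 as the highest HP library. A second unigene, Cluster-25472.0, is described as a putative LSD1 domain protein and its Swiss-Prot match is LOL1 of Arabidopsis. Its Pfam text names cytochrome b559, a photosystem protein, and an RNA polymerase subunit, but no LSD1 finger. This unigene had 8, 13 and 18 reads in the LP libraries and 0 in every HP library. It was at least 10.3-fold higher under LP and did not pass the filter, and the part of the green signal in its reads was not tested. Both unigenes with LSD1 in the description were higher under LP, and their sum was 664 ± 110 under LP and 284 ± 104 under HP (SD, n = 3 each).

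RanBP2-type fingers contact single-stranded RNA. VAR3 is a chloroplast protein needed for leaf development in Arabidopsis, and its 2 unigenes lay on opposite sides. Cluster-8255.95337 had normalized counts of 98.5, 109 and 123 in the LP libraries, against 25.0, 47.2 and 52.9 in the HP libraries, while Cluster-8255.56952 had normalized counts of 51.4, 63.2 and 27.5 in the LP libraries, against 169.9, 139 and 139 in the HP libraries. Log2 fold changes were 1.40 ± 0.32 and -1.65 ± 0.32, and the sum was 158 ± 12.8 under LP and 191 ± 4.34 under HP (SD, n = 3 each). The chloroplast marker given above was read under LP only, and its part in these values was not tested. The third, Cluster-8255.32810, resembling At1g67325 of Arabidopsis, had 0 reads under LP, against 12, 9 and 11 reads under HP, which put it at least 13.4-fold lower under LP. CCHC fingers, also called zinc knuckles, likewise contact RNA. Cluster-8255.105347, the CCHC unigene, had 87, 124 and 1 reads in the LP libraries, against 0 in every HP library. LP replicate 3 held almost none of them, so although it was at least 56.1-fold higher under LP over the 3 libraries, the level under LP rests on LP replicates 1 and 2.

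RING fingers recruit the enzymes that transfer ubiquitin. Cluster-8255.55679, a RING and CHY finger protein of the type that includes the human ubiquitin ligase PIRH2, had normalized counts of 273, 299.5 and 369 in the LP libraries, against 1035, 1018 and 946 in the HP libraries and a log2 fold change of -1.67 ± 0.13. Cluster-8255.24663, a Zinc/RING finger protein, was higher under LP, with normalized counts of 141, 124 and 80.7 in the LP libraries, against 50.0, 42.4 and 57.5 in the HP libraries and a log2 fold change of 1.21 ± 0.28. Cluster-8255.75765 is described as a putative RING protein but its best Swiss-Prot match is of the TVP38/TMEM64 family. Its Pfam text names a putative UBR box zinc finger and no RING finger. This unigene had 16, 18 and 11 reads under LP, against 0 in every HP library, and was at least 11.9-fold higher under LP.

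Among the remaining protein-contacting fingers, the DNL type was the best measured. In yeast, the DNL finger protein Zim17 keeps the mitochondrial Hsp70 chaperone in solution. The DNL unigene, Cluster-8255.85986, had normalized counts of 2206, 2214 and 2141 in the LP libraries, against 836, 795 and 1087 in the HP libraries, with a log2 fold change of 1.27 ± 0.13, and its LP libraries had a coefficient of variation of 1.82%. FYVE fingers bind a phosphoinositide of endosomal membranes, and the RCC1 family unigene with such a finger, Cluster-8255.57876, had normalized counts of 45.3, 22.6 and 68.8 in the LP libraries, against 174, 108 and 196 in the HP libraries and a log2 fold change of -1.80 ± 0.44. DHHC proteins attach palmitate to other proteins. The DHHC unigene, Cluster-8255.17062, had normalized counts of 97.6, 65.9 and 39.4 in the LP libraries, against 0, 0 and 24.2 in the HP libraries. All of its HP reads came from HP replicate 3, and the log2 fold change of 3.06 ± 1.33 was not called, and without that library no HP read remains.

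MYM and BED fingers occur in proteins derived from transposases, and the rice protein RICESLEEPER is such a domesticated transposase needed for growth. The BED unigene, Cluster-8255.34907, described as RICESLEEPER 2-like, had normalized counts of 26.2, 34.3 and 48.6 in the LP libraries, against 0, 3.63 and 1.15 in the HP libraries. At 4.45 ± 0.89, its log2 fold change was the largest among called members with reads in both treatments. The HP level rests on 4 reads, and the change was 5.76 without HP replicate 2 and, no longer called, 4.29 without HP replicate 3. The 2 MYM-type protein 1 unigenes were present in opposite treatments. Their Pfam text names a hAT dimerisation region of transposase origin and no MYM finger. Cluster-8255.125950 had 8, 19 and 16 reads under LP, against 0 in every HP library, and was at least 11.4-fold higher under LP. Cluster-8255.126182 had 0 reads under LP, against 20, 14 and 10 reads under HP, and was at least 18.5-fold lower. Their summed normalized counts were 12.9 ± 5.30 under LP and 16.4 ± 4.69 under HP (SD, n = 3 each) and overlapped. MORC proteins act in chromatin compaction and gene silencing in Arabidopsis. The description of the MORC-like unigene names a CW finger, a histone-reading fold, and no Pfam text was held to check for it. This unigene, Cluster-8255.36219, had normalized counts of 0, 7.22 and 63.3 in the LP libraries, against 142, 95.6 and 169 in the HP libraries. The LP libraries spread over a range starting at 0, and the log2 fold change of -2.53 ± 1.18 was not called. It was called at -5.20 without LP replicate 3 and was -1.93 without LP replicate 1.

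Of the 4 members whose descriptions named no finger type, Cluster-8255.49174 (a hypothetical protein of Phaseolus vulgaris) had normalized counts of 654, 702 and 592 in the LP libraries, against 299, 289 and 322 in the HP libraries, and Cluster-8255.57761 had normalized counts of 145, 115 and 128 in the LP libraries, against 64.6, 27.8 and 87.4 in the HP libraries. Both were higher under LP, with log2 fold changes of 1.10 ± 0.11 and 1.11 ± 0.40, the second not called. Cluster-8255.71774 had normalized counts of 55.8, 45.1 and 88.1 in the LP libraries, against 145, 184 and 170.3 in the HP libraries, and Cluster-8255.50381 had normalized counts of 3.49, 9.92 and 38.5 in the LP libraries, against 46.9, 81.1 and 78.2 in the HP libraries. Both were lower, with -1.40 ± 0.28 and -1.98 ± 0.79, the second not called. The second was called at -3.33 without LP replicate 3, its highest LP library, and its smallest change with 1 library left out was -1.49.

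**Figure D3:**
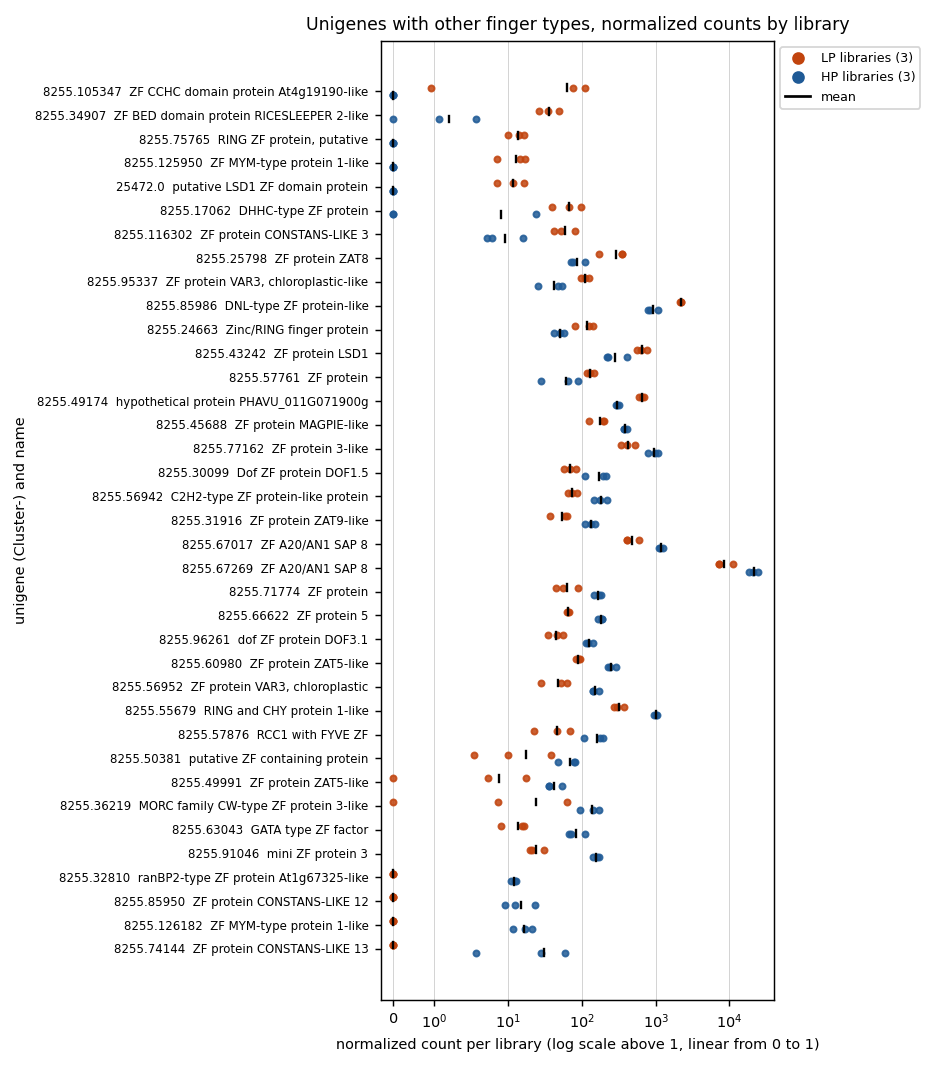
Normalized counts of the 37 unigenes with finger types other than CCCH, 1 row each, on an x axis that is logarithmic above 1 and linear between 0 and 1. Red points are the 3 LP libraries, blue points the 3 HP libraries and black ticks their means, and rows run from the largest increase under LP at the top to the largest decrease at the bottom. SAP8 Cluster-8255.67269 is the only unigene with values of 7166 or more, and 4 unigenes at each end or near it have all libraries of 1 treatment at 0.

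Unigenes that shared a name were compared as sets, since RSEM divides reads among like unigenes and a sum depends less on that division. There were 9 such sets with 19 members. In 4 sets (CCCH with G patch, LSD1, SAP8 and ZAT5) all members lay on 1 side, and in 5 (CCCH protein 20, CCCH protein 32, CCCH protein 43, MYM-type protein 1 and VAR3) they lay on both. In the sets that lay on both sides, other than CCCH protein 20, the mean sum under LP was 0.912 (CCCH protein 32), 1.31 (CCCH protein 43), 0.787 (MYM) and 0.824 (VAR3) times that under HP. Summed FPKM gave ratios of 1.14, 0.865, 0.821 and 0.855 for the same sets in the same order, so the direction of the sum turned for CCCH protein 32 and CCCH protein 43. On either scale each sum differed less between the treatments than the normalized counts of its single unigenes did. At least 1 library held an estimated count that was not whole for 76.7% of the members, beside 81.8% of all unigenes tested. Within the sets, Cluster-8255.83648 and Cluster-8255.85059 (CCCH protein 20) and Cluster-8255.60980 (ZAT5) had whole counts in every library. Whether reads were divided between unigenes of 1 set was not tested.

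**Figure D4:**
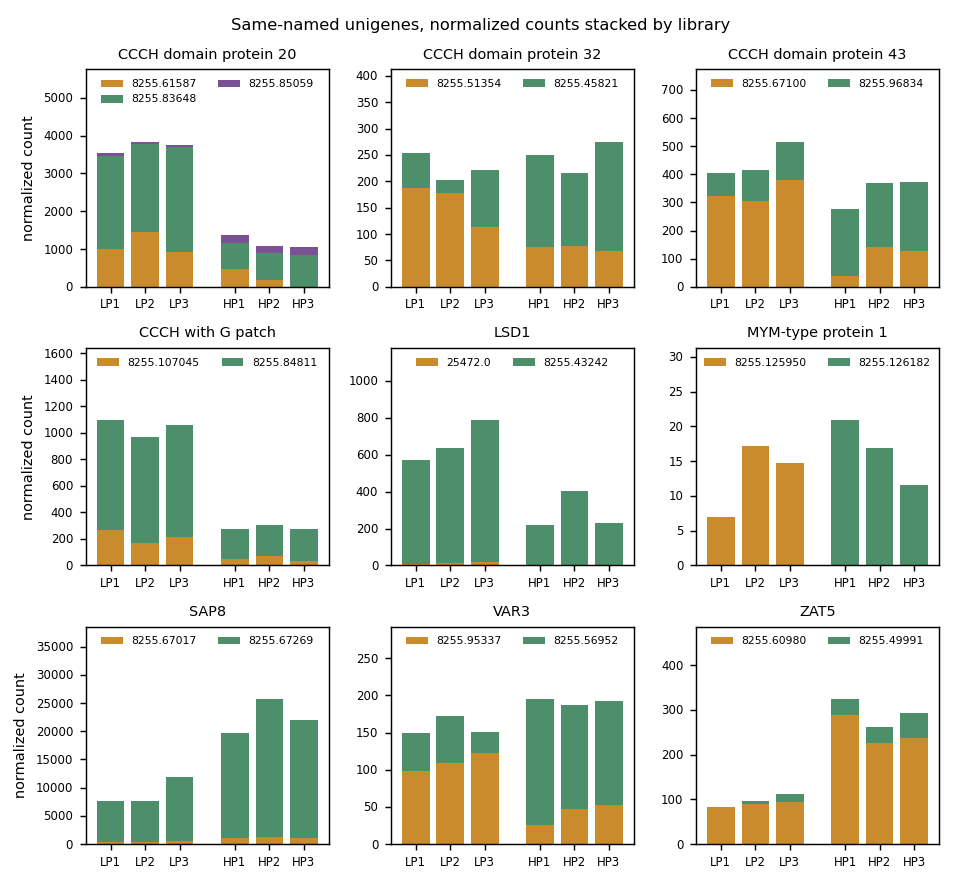
Normalized counts of the 9 sets of same-named unigenes, stacked by library, with the 3 LP libraries left of the 3 HP libraries and a y axis that starts at 0 and differs between panels. Each colour is 1 unigene of the set. In CCCH protein 32, CCCH protein 43, MYM-type protein 1 and VAR3 the colours change places between LP and HP, while in SAP8 and ZAT5 the whole bar is lower under LP and in CCCH with G patch and LSD1 it is higher.

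A total of 9 members had no read in 1 treatment, 5 of them under HP and 4 under LP. All were weakly expressed where they were present, with a mean FPKM of 0.29 to 2.56 and 32 to 212 reads over the 3 libraries, and 4 of the 9 passed the filter. No SE is given for these, since a fitted fold change depends on the prior count there. A call depends on the spread within a treatment, and the values of that spread are given as a description. The larger of the within-treatment coefficients of variation had a median of 108% over the 10 members tested and not called, and 24.0% over the 45 called. In 6 of the 10 at least 1 library held no read.

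LP libraries were also compared by their distance to HP. Among the 56 members for which the LP libraries differed in distance to the HP mean, LP replicate 3 was the nearest for 32, LP replicate 1 for 13 and LP replicate 2 for 11. For members lower under LP, the count for LP replicate 3 was 21 of 31 (67.7%), and over all unigenes called lower it was 2369 of 4078 (58.1%). For members higher under LP, it was 11 of 25 (44.0%), and over all unigenes called higher it was 1241 of 3780 (32.8%), where LP replicate 2 was the nearest for 1506 (39.8%). In SAP8, the MORC-like unigene and Cluster-8255.50381, all lower under LP, LP replicate 3 was the highest LP library. Without LP replicate 3, 45 members were called.

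Compared with the rest of the same table, the 60 members had a lower median FPKM (4.52) than the 9 JACKDAW and NUTCRACKER unigenes (5.67) and the 213 unigenes of other families (6.99). A smaller share of those tested was called, 45 of 55, against 9 of 9 JACKDAW and NUTCRACKER unigenes and 185 of 205 others. All 3 groups were chosen by the same contrast, and the differences between them were not tested. The median coefficient of variation of the members was 24.0% under LP and 15.2% under HP, against 26.2% under LP and 22.4% under HP over all unigenes tested.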

How the data were processed

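RNA-seq tables of 6 libraries were used, 3 titled LP and 3 titled CK (HP here). According to the study's methods, the authors assembled filtered paired reads of all samples into unigenes and ran RSEM, and the submitters' notes name Bowtie2 2.2.3. The estimated counts that the authors deposited are RSEM's expected counts, without normalization, in which the program divides reads that match several unigenes, so like unigenes are uncertain. The deposited FPKM values were scaled by the authors for length and library size. The notes on the library kit disagree on strand and the sources used here give no strand setting for the counting, so overlapping and antisense unigenes are uncertain too. No genome or annotation of this species was used, and descriptions come from the study's tables, whose fold change and p columns were not used.

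Counts were rounded, filtered with filterByExpr at a minimum count of 10, scaled by TMM (factors 0.975 to 1.01) and tested across all 62040 unigenes kept by quasi-likelihood in edgeR 4.0.16 (with limma 3.58.1 and R 4.3.3) with Benjamini-Hochberg adjustment. The step was tested on simulated data. Bounds use a floor of 3 reads over a treatment and cover counting error only. No exact permutation test of 3 libraries against 3 can give a p below 0.1. No 2 libraries agreed within sampling noise (chi-square over degrees of freedom between 5.94 and 17.2). Alternatives were DESeq2 1.42.0, other scalings, filters, thresholds and tests, limma on log2(FPKM + 1) and log2(FPKM + 0.1), the replicate number as a block, and each library left out.

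The members and lists were chosen with earlier results of these data known. Values in every library are given for 47 members: those without reads in a treatment, not tested or not called, of the highest mean FPKM (3), of a shared name, of a finger type with under 4 members, and the 2 largest changes in each direction in larger types. The other 13 are given by range. Sequences are not used here.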

Additional observations from a re-analysis of the deposited data

How the results depend on the processing

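Of 8183 unigenes called, 3053 passed glmTreat, a test of whether the log2 change exceeds 1, 4214 at an adjusted p threshold of 0.01 and 5167 with the replicate number as a block, and 5586 to 8183 with 1 library left out. Of 45 members called, the counts were 15 with glmTreat, 23 at 0.01 and 32 with the block, and 28 to 45 with 1 library left out. Members called higher under LP numbered 18, against 6 with glmTreat, 6 at 0.01, 10 with the block and 10 to 16 with 1 library left out. Members called lower numbered 27, against 9, 17, 22 and 18 to 29 in those settings. DESeq2 called 47 members, no filter 49, limma on log2(FPKM + 1) 41 and on log2(FPKM + 0.1) 47. In 0 of the 60 members did the sign change under the 18 alternatives, and 10 members were called in all of them. The summed CCCH protein 43 unigenes turned to a log2 ratio of -0.21 when FPKM was summed in place of counts, where the main value was 0.39, and those of CCCH protein 32 to 0.18, where it was -0.13. FPKM divides each count by length, so an FPKM sum gives the shorter unigene more weight than a count sum does. Effective lengths were 2839 bases (Cluster-8255.67100) and 1137 bases (Cluster-8255.96834) for CCCH protein 43. For CCCH protein 32 they were 1056 bases (Cluster-8255.51354) and 1867 bases (Cluster-8255.45821). No other cause was tested. Deviations of same-numbered libraries had correlations of -0.006, 0.040 and 0.049, against -0.063 to 0.026 for libraries with different numbers. Whether the numbers pair the boxes cannot be told from such small values. The LP libraries were the deeper ones, and members with few reads are limited by depth.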
